A study of Mus musculus with 6 samples.

Results

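Brown fat burns fuel to make heat. A nerve signal through beta-adrenergic receptors raises cyclic AMP, lipid droplets release fatty acids, and mitochondria oxidize these while *UCP1*, a channel of their inner membrane, lets protons return without making ATP. Small pads and scattered cells of this kind lie along muscles and vessels of the neck and thorax. Described here are 8 mouse genes known for this programme, *Ucp1*, *Cidea*, *Dio2*, *Elovl3*, *Prdm16*, *Zic1*, *Otop1* and *Ppara*, of the 18138 named genes on the array. They were read as every probe that carries 1 of these symbols, which gave 10 of 25697 probes, 3 of them for *Otop1* and 1 for each other gene. The set was selected on earlier results of the same arrays, in which *Ucp1* and *Cidea* had some of the lowest values in *Cmah*-null against WT cochleae. The difference between genotypes is therefore given for the members as a description, with no test.

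Cochlear tissue came from C57BL/6 mice (C57BL/6J in the methods) of 12 months, 3 WT and 3 *Cmah*-null, with 1 Illumina MouseRef-8 v2 array for each sample. *Cmah* encodes the hydroxylase that makes N-glycolylneuraminic acid, a sialic acid, and the null line carries the Cmah<tm1Ykoz> knockout allele. Its own probe lay between 7.27 and 7.98 in log2 signal and was detected on 1 WT and 2 *Cmah*-null arrays, so its signal was too dim to verify which samples lacked the gene. The labels name no treatment and no sex, and nothing states whether a sample was 1 mouse, so SDs describe the spread between these samples. Standard errors of differences are the moderated ones of limma, in which each probe's variance is drawn towards that of all probes. For *Ucp1* and *Cidea* they are smaller than the SDs alone would give. The deposited values were log2 signals after quantile normalization. A probe counted as detected on an array where its signal exceeded the negative controls at a detection p under 0.05, which held for 13873 to 15223 probes per array. *Cmah*-null replicates 1 and 2 lay much closer together than other arrays, with an SD of 0.13 for their log2 difference over all probes, against 0.31 to 0.64 for the other 14 pairs.

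The probe for *Ucp1* was a stretch of 50 bases (ILMN_2994373) that begins at base 650 of its transcript. It is shown because every *Ucp1* value below rests on this sequence alone. It occurred in 1 row of the array's table, and none of its 3 reading frames held a stop codon.

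ILMN_2994373 for Ucp1: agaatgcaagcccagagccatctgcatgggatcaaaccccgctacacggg

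Upstream sequences are shown for the members detected on all 6 arrays that have an entry in RefSeq's promoter table, which held 6 of the 8 genes. Each window is the 250 bases before the transcript start, written 5′ to 3′ on the strand of the gene, in build GRCm38.p6. Capitals mark TGACG, which is a core sequence that cyclic AMP response factors bind, and AGGTCA, the core bound by nuclear receptors, on either strand. The *Ucp1* window lies at chr8:83290098-83290347 on the plus strand, the *Otop1* window at chr5:38277154-38277403 on the plus strand and the *Zic1* window at chr9:91365769-91366018 on the minus strand.

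Ucp1: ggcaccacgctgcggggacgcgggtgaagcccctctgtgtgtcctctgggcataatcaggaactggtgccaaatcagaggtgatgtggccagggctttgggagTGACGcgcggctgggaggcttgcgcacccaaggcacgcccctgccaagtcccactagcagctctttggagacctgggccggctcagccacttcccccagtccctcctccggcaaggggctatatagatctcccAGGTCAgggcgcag

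Otop1: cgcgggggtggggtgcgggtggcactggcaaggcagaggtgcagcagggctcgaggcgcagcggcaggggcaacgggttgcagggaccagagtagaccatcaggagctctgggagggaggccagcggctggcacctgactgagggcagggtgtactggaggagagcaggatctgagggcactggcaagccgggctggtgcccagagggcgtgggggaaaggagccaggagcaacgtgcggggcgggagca

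Zic1: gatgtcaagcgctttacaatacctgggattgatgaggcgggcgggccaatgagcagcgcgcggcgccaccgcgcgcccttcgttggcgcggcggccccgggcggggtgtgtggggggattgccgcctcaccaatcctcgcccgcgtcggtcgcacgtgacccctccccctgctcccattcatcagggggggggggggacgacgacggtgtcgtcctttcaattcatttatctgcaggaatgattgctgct

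The *Ucp1* window held 1 TGACG, which starts 147 bases before the transcript, and 1 AGGTCA, which starts 14 bases before it. Neither sequence occurred in the windows of *Otop1* and *Zic1*. Over 32851 windows of the same length, 17.8% held TGACG and 14.0% held AGGTCA. The TATA box, as TATAAA, was searched too on both strands, occurred in 12.4% of windows and was in none of these 3. In the undetected *Dio2* it started 30 bases before the transcript. The matches did not overlap each other in the windows shown. They describe letters only, and nothing about binding was measured.

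*Ucp1* and *Cidea*, the heat channel and a protein that enlarges lipid droplets, were the members with the lowest values in *Cmah*-null mice relative to WT. Both were about 4-fold lower there, with 4.32-fold for *Ucp1* and 4.04-fold for *Cidea*. *Zic1*, a zinc finger factor that marks classical brown fat and also acts in the nervous system, was 1.28-fold higher. The other members either overlapped between genotypes or were near background. Of the 8 genes, 4 were detected on all 6 arrays by at least 1 probe and 2, *Dio2* and *Prdm16*, on no array.

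**Figure D1:**
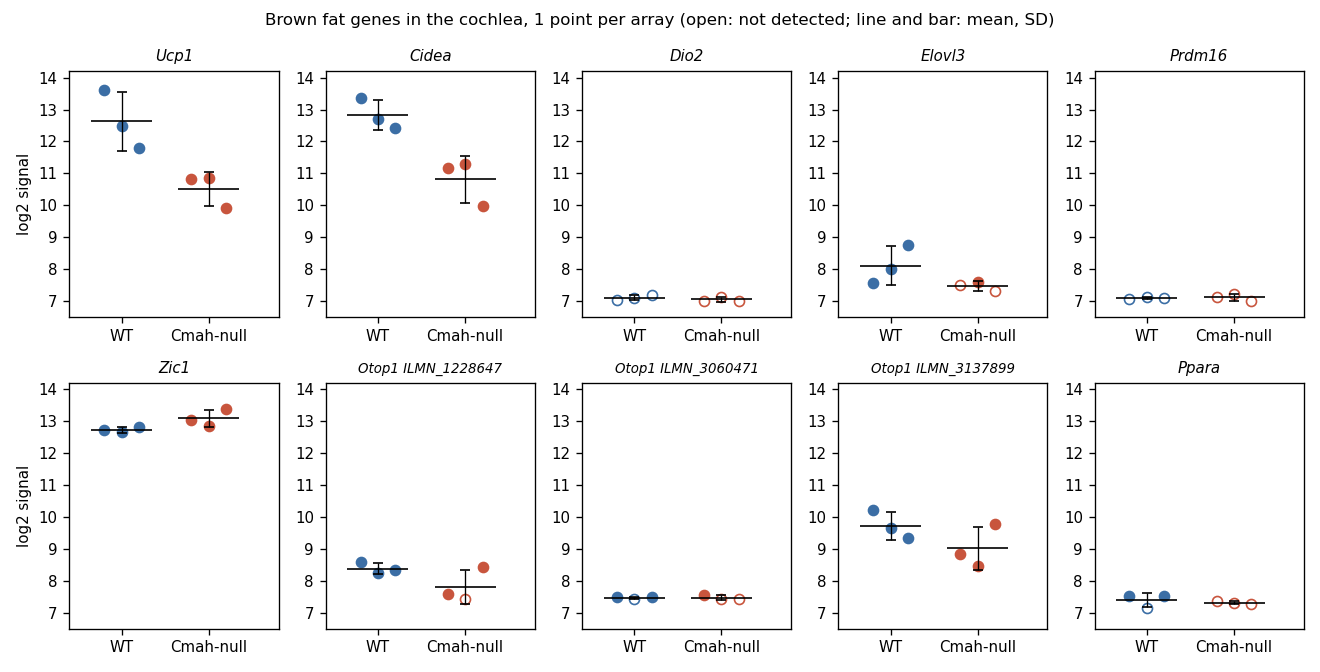
Log2 signal (vertical axis) of each of the 10 member probes on each array, WT in blue and *Cmah*-null in red. Filled points were detected and open points were not, and lines with bars give the mean and SD of 3 arrays. *Ucp1* and *Cidea* are lower and *Zic1* slightly higher on all *Cmah*-null arrays, while *Dio2* and *Prdm16* stay near 7 throughout.

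The log2 signal of *Ucp1* was 13.63, 12.48 and 11.79 on WT arrays and 10.82, 10.84 and 9.90 on *Cmah*-null arrays. Every WT array was above every *Cmah*-null array, but the WT arrays themselves spread over more than the gap between the groups. The means were 12.63 ± 0.93 for WT and 10.52 ± 0.54 for *Cmah*-null mice (SD, n = 3 each). The difference was -2.11 with a standard error of 0.52, which placed the probe at rank 3 from the lowest of all probes. The spread among WT arrays was far larger than the bead error of these signals, which was 0.03 to 0.06 on the log2 scale. In the raw, unnormalized signals the WT arrays gave 13261, 4430 and 2510 and the *Cmah*-null arrays 2589, 2433 and 811. On that linear scale WT replicate 3 was below *Cmah*-null replicate 1, so the groups overlapped before normalization.

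*Cidea* had log2 signals of 13.35, 12.70 and 12.43 on WT arrays and 11.17, 11.30 and 9.97 on *Cmah*-null arrays. The gap between its groups was wider than the range of the WT arrays and narrower than that of the *Cmah*-null arrays. The groups were also apart in the raw signals, where the lowest WT array gave 3878 and the highest *Cmah*-null array 3346. The means were 12.83 ± 0.47 (SD, n = 3) and 10.81 ± 0.73 (SD, n = 3). The difference was -2.01 with a standard error of 0.42, at rank 5 from the lowest. *Cmah*-null replicate 3 was the lowest array for both genes. Among all probes, 7.33% were lower on every *Cmah*-null array than on any WT array, and 9.11% were higher on every one. Since *Ucp1* and *Cidea* helped to define the set, nothing is read from their being 2 of the 8 genes.

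*Zic1* had log2 signals of 12.70, 12.65 and 12.82 on WT arrays and 13.02, 12.86 and 13.36 on *Cmah*-null arrays. The groups did not overlap, although WT replicate 3 and *Cmah*-null replicate 2 were nearly level. The means were 12.72 ± 0.09 for WT and 13.08 ± 0.26 for *Cmah*-null mice (SD, n = 3 each), a difference of 0.36 with a standard error of 0.14. *Zic1* thus stood on the opposite side from *Ucp1* and *Cidea*.

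*Otop1* encodes a proton channel known both from brown fat and from the inner ear, where the crystals of the balance organ need it. The brightest of its 3 probes, ILMN_3137899, had log2 signals of 10.20, 9.63 and 9.32 on WT arrays and 8.83, 8.46 and 9.76 on *Cmah*-null arrays. The groups overlapped because *Cmah*-null replicate 3 was above both lower WT arrays, the reverse of its place for *Ucp1* and *Cidea*. The difference was -0.70 with a standard error of 0.39. A second probe, ILMN_1228647, showed the same order of genotypes and the same exception, with 8.57, 8.23 and 8.33 against 7.59, 7.41 and 8.42 and a difference of -0.57 (standard error 0.28). It was detected on the 3 WT arrays and 2 *Cmah*-null arrays. The third, ILMN_3060471, lay at 7.42 to 7.55 everywhere and was detected on 2 WT arrays and 1 *Cmah*-null array, so it gave no difference that could be read.

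*Elovl3*, an enzyme that lengthens fatty acids and rises in brown fat in the cold, was dim. Its log2 signals were 7.56, 8.01 and 8.77 on the WT arrays, all detected, and 7.52, 7.61 and 7.31 on *Cmah*-null arrays, of which only replicate 2 was detected. The groups overlapped, and the highest array was WT replicate 3, which was the lowest WT array for *Ucp1* and *Cidea*. The difference was -0.64 with a standard error of 0.31 and shrank to -0.31 without WT replicate 3.

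The remaining members were regulators and an enzyme that gave little or no signal. *Ppara*, a nuclear receptor for genes of fatty acid oxidation, had log2 signals of 7.52, 7.15 and 7.50 on WT arrays and 7.36, 7.29 and 7.26 on *Cmah*-null arrays. It was detected on 2 WT arrays and on no *Cmah*-null array, and no fold is given. *Dio2*, the deiodinase that makes active thyroid hormone inside brown fat cells, lay at 7.02 to 7.20, and *Prdm16*, a co-regulator of brown fat identity, at 7.01 to 7.22. Both were not well above background on any array, so the arrays give no fold for them.

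The lower *Ucp1* and *Cidea* were checked against the scaling of the arrays. With neqc, which subtracts a modelled background before quantile normalization, *Ucp1* was at 13.66, 12.50 and 11.78 in WT and 10.76, 10.78 and 9.74 in *Cmah*-null mice. With each array only moved to the same median, the values were 13.71, 12.11 and 11.32 against 11.25, 11.22 and 9.74. WT replicate 3 was then just above *Cmah*-null replicate 1, and the difference was -1.64, or 3.12-fold. *Cidea* was at -1.54 with that scaling, or 2.90-fold, and its groups stayed apart. *Zic1* went from 0.36 to 0.86. That scaling also raised the median difference of probes with a detected signal on all 6 arrays from 0.03 to 0.30, and its values are to be read against this shift.

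**Figure D2:**
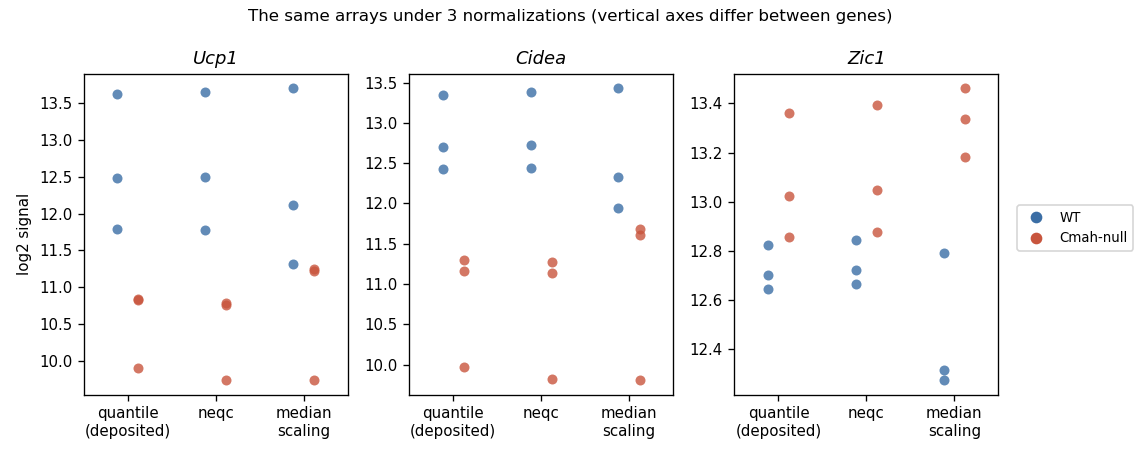
Log2 signal (vertical axis, a separate range for each gene) of *Ucp1*, *Cidea* and *Zic1* on the 3 WT (blue) and 3 *Cmah*-null (red) arrays under the deposited quantile normalization, neqc and median scaling. The genotypes keep their order for each gene, and median scaling narrows the gap for *Ucp1* to the distance between 11.32 and 11.25.

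Over the 12 alternatives, *Ucp1* lay between -2.53, without WT replicate 3, and -1.61, without WT replicate 1. *Cidea* lay between -2.36, with the bead number as a block, and -1.54. The brightest *Otop1* probe lay between -1.07 and -0.42, and *Elovl3* reached -1.39 with neqc. *Zic1* stayed above 0 in the same alternatives, from 0.22 without *Cmah*-null replicate 3 to 0.86. Among the 12, the replicate block and the detection filter could not change a difference, and their values equalled those given first.

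To place the members among the rest of the programme, 54 other genes of brown fat heat production were listed by role, with earlier results of these arrays known. Of these, 53 were on the array and 34 were detected on all 6 arrays. A gene was called where its brightest probe differed by 1.5-fold or more with an unadjusted p under 0.05 in limma. By that rule 10 genes were lower in *Cmah*-null mice, 1 was higher and 42 were not called. Over all probes 1.41% were called lower and 1.30% higher, and among the 12410 probes detected on all 6 arrays 2.64% were lower and 2.51% higher. Of the 34 listed genes detected on all 6 arrays, 9 were called lower, which is 26.5%. No probe of the array passed an adjusted p of 0.05 in limma (0%), where 2199 had an unadjusted p under 0.05, and the smallest adjusted p among the listed genes was 0.365. The median difference of the 53 genes was -0.09, against 0.00 over all probes and 0.03 over probes detected on all 6 arrays.

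**Figure D3:**
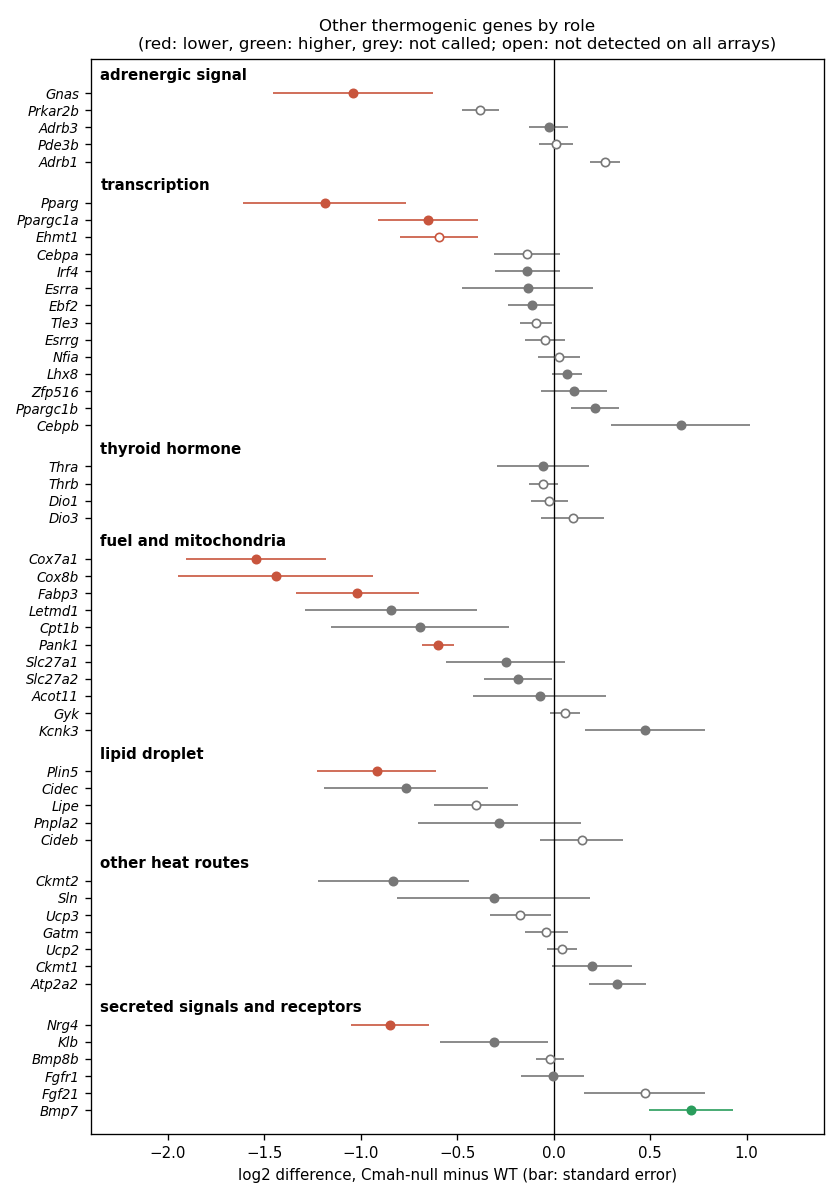
Log2 difference between *Cmah*-null and WT mice (horizontal axis, bars are standard errors) for the listed thermogenic genes other than the members, 1 of the 53 left out, grouped by role and sorted within each role. Of the 10 lower calls (red), 4 are among the 11 genes of fuel and mitochondria and 3 among the 14 of transcription, and *Bmp7* (green) is the higher call.

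Among genes of fuel and mitochondria, 4 of 11 were called lower and the median difference was -0.60, or -0.11 with median scaling. *Cox7a1*, a subunit of cytochrome oxidase found in brown fat, heart and muscle, had log2 signals of 14.19, 13.63 and 12.79 on WT arrays and 12.05, 12.22 and 11.72 on *Cmah*-null arrays. Its groups did not overlap, and *Cmah*-null mice were 2.91-fold lower (log2 difference -1.54, standard error 0.36). *Cox8b*, another subunit of the same tissues, had 14.95, 14.81 and 14.58 against 13.93, 13.94 and 12.15 and was 2.71-fold lower. *Cmah*-null replicate 3 was again far below the other arrays. *Fabp3*, a fatty acid carrier, was 2.03-fold lower and *Pank1*, which starts the synthesis of coenzyme A, 1.52-fold lower. *Cpt1b*, which passes fatty acids into mitochondria, had a difference of -0.69 (standard error 0.46) and *Letmd1* of -0.84 (standard error 0.45), and neither was called.

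The adrenergic signal that switches on *Ucp1* was represented by 6 genes. *Gnas*, the G protein subunit between the receptors and cyclic AMP, was called lower, with 11.92, 10.83 and 10.41 on WT arrays and 9.95, 10.39 and 9.69 on *Cmah*-null arrays. Its lowest WT and highest *Cmah*-null array almost met. *Adrb3*, the receptor most typical of fat cells, was detected on all arrays but was dim. Its mean log2 signal was 7.82 in WT and 7.80 in *Cmah*-null mice, where the lowest detected signal per array was 7.44 to 7.57. The difference of *Adrb3* was -0.03 (standard error 0.10). So close to background, this value does not show that the receptor was unaltered. *Adrb1*, the receptor known best from the heart, was detected on no array.

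Of 14 transcription factors and co-factors, 3 were called lower and none higher. *Pparg*, the nuclear receptor of fat cell formation, had 11.67, 10.39 and 11.12 on WT arrays and 10.32, 10.09 and 9.21 on *Cmah*-null arrays, a difference of -1.19 (standard error 0.42). Its groups were separated by little, between WT replicate 2 and *Cmah*-null replicate 1. *Ppargc1a*, a co-activator of mitochondrial genes, had a difference of -0.65 (standard error 0.26) and *Ehmt1*, a partner of PRDM16, of -0.59 (standard error 0.20). *Ehmt1* was near background in *Cmah*-null mice, at 7.59, 7.70 and 7.30, and was detected on 2 of these arrays. *Ebf2*, which marks precursors of brown fat, was at -0.11 (standard error 0.12), and *Cebpb* was at 0.66 (standard error 0.36) without a call.

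Of 5 genes of the lipid droplet, 1 was called lower, *Plin5* (2310076L09Rik on the array), which coats droplets beside mitochondria and had a difference of -0.92 (standard error 0.31) with overlapping groups. *Cidec*, the closest relative of *Cidea* on the list, was at -0.77 (standard error 0.42) and *Cideb* at 0.15 (standard error 0.22), neither called. Thyroid hormone receptors and the other deiodinases gave no call. Of these 4 genes only *Thra* was detected on all 6 arrays, and *Thrb* and *Dio1* were detected on none. The other routes of heat production gave no call either, with *Ckmt2* at -0.83 (standard error 0.39). *Ckmt2* had 13.44, 13.16 and 11.93 on WT arrays and 12.07, 11.97 and 11.99 on *Cmah*-null arrays. WT replicates 1 and 2 thus stood above the other arrays, as they did for the skeletal muscle markers below. *Ucp2* was detected on 0 of 6 arrays. *Ucp3* was detected on 3 WT arrays and 1 *Cmah*-null array and had a difference of -0.17 (standard error 0.16).

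Among secreted signals and their receptors there was 1 call in each direction. *Nrg4*, a factor that brown fat releases, had 9.62, 8.90 and 9.22 on WT arrays and 8.53, 8.45 and 8.20 on *Cmah*-null arrays, 1.80-fold lower. *Bmp7*, a growth factor that promotes brown fat, had 8.23, 8.20 and 8.40 against 8.79, 8.70 and 9.47, 1.64-fold higher. Neither gene overlapped between genotypes.

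The calls differed in how far they depended on single arrays and on scaling. Over 13 alternatives those of *Cox7a1* and *Nrg4* were kept in 12, *Pank1* in 11, *Fabp3* and *Bmp7* in 10 and *Cox8b* in 9. Those of *Pparg* and *Ehmt1* were kept in 8, *Gnas* and *Plin5* in 6 and *Ppargc1a* in 4. Without WT replicate 1, the array with the most *Ucp1* signal, only *Cox7a1*, *Pank1* and *Nrg4* of the 11 were called. With median scaling none of the 10 lower calls remained, although the 10 genes still had differences below 0, from -1.06 for *Cox7a1* to -0.11 for *Pank1*. *Bmp7* was then joined by *Cebpb*, *Ppargc1b* and *Atp2a2* as higher.

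Of the relatives of *Zic1*, *Zic4* and *Zic2* lay on the same side as *Zic1*. *Zic4* was called higher, with 9.09, 8.80 and 8.39 on WT arrays and 9.48, 9.42 and 9.41 on *Cmah*-null arrays (log2 difference 0.68, standard error 0.18), a call that was lost without WT replicate 3. *Zic2* was at 0.55 (standard error 0.38) with overlapping groups and no call. It was dim, with 7.76, 7.49 and 7.72 on WT arrays, of which 2 were detected. The *Cmah*-null arrays gave 7.58, 7.96 and 9.07, so its difference rested mainly on *Cmah*-null replicate 3. *Zic5* was detected on no array. *Zic2* and *Zic4* stayed above 0 with neqc and with median scaling. Among fatty acid elongases related to *Elovl3*, *Elovl4* was at -1.07 (standard error 0.72) and *Elovl6* at -0.80 (standard error 0.55), with overlapping groups and no call. *Otop2* and *Otop3* were detected on no array. Of 11 other *Prdm* genes listed, 7 were on the array and 5 of these were detected on no array. None was called, which says little about the family.

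The probes whose values most resembled those of *Ucp1* over the 6 arrays were found by Pearson correlation among 2713 probes that varied enough to compare. The closest were *Calca* (r = 0.99), *Cd59a*, *Art3*, *Mb*, *Acaa2*, *Apoc1*, *Coq9*, 2310002L09Rik, *Mfap5* and *Cox7a1*, of which *Cox7a1* had the lowest r, 0.987. In all, 55 probes were above 0.95. These points share the arrays and the difference between genotypes, so the values describe likeness only. *Cidea* was at rank 25 with r = 0.97, and at 0.89 after each genotype's mean was removed. The brightest *Otop1* probe was at 0.55 and *Elovl3* at 0.31, and with the means removed these were 0.07 and -0.69. The 3 WT arrays had the same order for *Otop1* as for *Ucp1*, while *Cmah*-null replicate 3 was the highest of its group for *Otop1* and the lowest for *Ucp1*.

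Markers of other cell types differed between the same arrays, and their part in the values above was not tested. In such whole tissue, fewer cells of a type and less RNA per cell cannot be told apart. Of 12 markers of any fat cell, 11 had a difference below 0 and the median difference was -0.60. Called lower were 2 (*Dgat2* and *Acsl1*), and none was called higher. Over all probes 1.41% were called lower and 1.30% higher, and the median difference was 0.00. The call of *Dgat2* was lost with median scaling, and that of *Acsl1* also without any 1 of 5 arrays. The summed signal of the 12 markers, taken from the normalized values on a linear scale, was 65993 to 91853 on WT arrays. It was 49409 to 77458 on *Cmah*-null arrays, so the groups overlapped. *Adipoq*, the adipokine specific to fat cells, had log2 signals of 13.21, 12.69 and 13.75 in WT and 12.93, 12.87 and 10.24 in *Cmah*-null mice, so only *Cmah*-null replicate 3 stood low. *Cfd*, another product of fat cells, had a difference of 0.26 (standard error 0.48). Of 7 markers of white fat, *Lep* was called lower (log2 difference -1.49, standard error 0.52), as it was in 6 of 13 alternatives, and the median was 0.08, with 3 genes detected on no array. That median was 0.02 without *Cmah*-null replicate 1 and 0.18 without *Cmah*-null replicate 3. Of 6 beige fat markers none was called and the median was -0.05, or 0.06 without WT replicate 2.

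*Ucp1* was set against the fat cell markers on each array by subtracting their median log2 signal. That median was 11.89, 10.81 and 10.70 on WT arrays and 9.72, 10.12 and 9.66 on *Cmah*-null arrays. It is set by the genes of middle brightness, and it fell more between genotypes than the median of the 12 marker differences, -0.60. The size of what remains therefore depends on this choice, and less of the difference would be removed by the -0.60. This left 1.74, 1.67 and 1.08 on WT arrays and 1.10, 0.73 and 0.24 on *Cmah*-null arrays. WT replicate 3 and *Cmah*-null replicate 1 then overlapped slightly, and the difference between genotypes was -0.81. *Cidea* had 1.46, 1.89 and 1.73 against 1.45, 1.18 and 0.31, a difference of -0.71, with its lowest WT and highest *Cmah*-null arrays level.

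**Figure D4:**
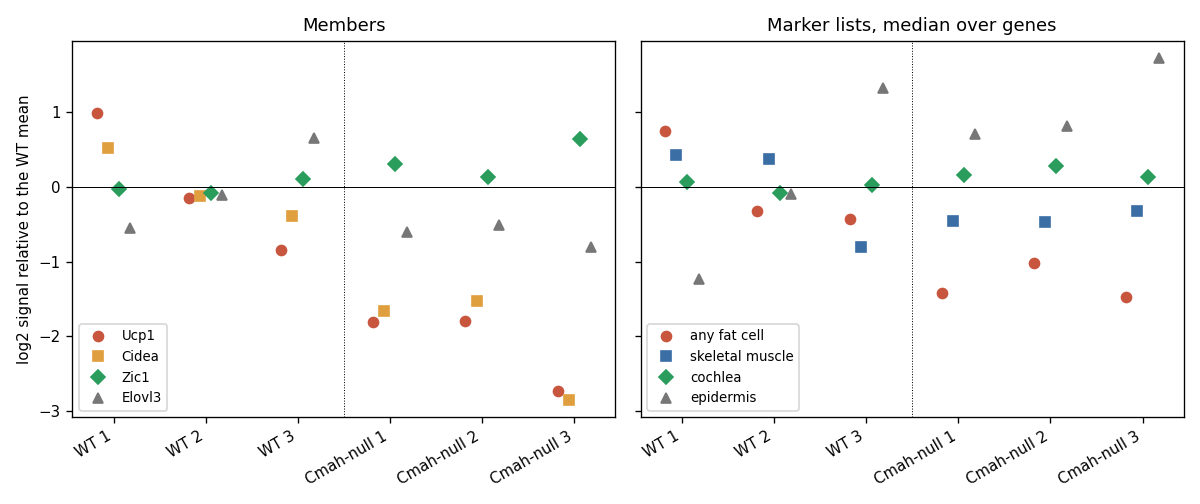
Log2 signal of 4 members (left) and median log2 signal of 4 marker lists (right) on each array, relative to the mean of the 3 WT arrays (vertical axis, 0 is the WT mean). *Ucp1* and *Cidea* lie below 0 on every *Cmah*-null array, as does the median of the fat cell markers, though not every one of these markers. The median of the muscle markers splits WT replicates 1 and 2 from the other 4 arrays.

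Skeletal muscle markers were bright, and 15 of 16 were detected on all 6 arrays. Their summed signal on the same normalized linear scale was 476589 and 488713 on WT replicates 1 and 2 and between 274979 and 316297 on the other 4 arrays, WT replicate 3 among them. Of the 16, 14 had a difference below 0 and *Mb* alone was called lower, where 1.41% of all probes were. Against 0.00 over all probes, the median difference was -0.51, or -0.15 with median scaling. It was -0.30 without WT replicate 1, -0.27 without WT replicate 2 and -0.85 without WT replicate 3. With the median log2 signal of the muscle markers subtracted on each array, *Ucp1* was at -1.70 and *Cidea* at -1.60 between genotypes. Epidermal markers had a median difference of 0.89 (0.48 without WT replicate 1 and 1.41 without WT replicate 3), although none of the 5 was called and WT replicate 3 was as high as the *Cmah*-null arrays. Their summed normalized signal was 31193, 45352 and 124450 on WT arrays and 105917 to 110027 on *Cmah*-null arrays. The medians were -0.20 for red blood cell, -0.13 for bone and -0.10 for neuron markers, with no call, and median scaling turned those of red blood cell and bone to 0.00 and 0.17. These medians rested on single arrays. That of red blood cell markers ran from -0.55 without WT replicate 1 to -0.02 without WT replicate 2. That of bone ran from -0.52 without *Cmah*-null replicate 3 to 0.03 without WT replicate 2. That of neuron ran from -0.18 without WT replicate 3 to -0.02 without *Cmah*-null replicate 3. The summed normalized signal of bone markers was 105908 and 111823 on WT replicates 1 and 2. It was 25443 on WT replicate 3 and 38946 to 41068 on *Cmah*-null arrays. Of 17 cochlear markers none was called and the median was 0.09. Their summed normalized signal was 14873, 24739 and 29397 on WT arrays and 23960 to 25212 on *Cmah*-null arrays. WT replicate 1, the array with the most *Ucp1* signal, thus had the lowest sum. Its median log2 signal of these markers, 8.16, was not the lowest, which was 8.02 on WT replicate 2. Of the 17 markers, 11 were detected on all 6 arrays. Among them were *Coch*, *Gjb2* and *Gjb6*, known from the cochlear wall and supporting cells, and *Myo7a* and *Otof*, known from hair cells. Which cells gave these signals was not tested. The 4 markers detected on no array were *Pou4f3*, *Slc26a5* and *Strc* of hair cells and *Tectb* of the tectorial membrane.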

How the data were processed

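The authors deposited 2 tables for the 6 arrays, 1 per sample. The raw table holds intensity values, the average bead signal of each probe, with its bead error, bead number and detection p-value, without background subtraction per the file headers. The second table holds log2 values, which the authors obtained after a quantile step and which equalled quantile-normalized log2 raw signals to within 5e-07. Its second group is named "old" where the sample labels say *Cmah*-null, and columns were matched by these names and their replicate numbers. Another 12 columns of per-sample values and the authors' own fold changes and test values were not used. The members and gene lists were chosen with earlier results of these data known.

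The log2 values were compared between genotypes by two-sided tests from lmFit and eBayes (limma 3.58.1, R 4.3.3) without covariates, adjusted by Benjamini-Hochberg over 25697 probes. The code of the fit was run on simulated data with planted changes and independent noise for each probe, which does not bear on the calls from these arrays. Listed genes were represented by their brightest probe, and 9 of 171 were not matched on the array. Named were all members, all listed genes as needed and the 10 probes most like *Ucp1*. Alternatives were neqc (offset 16), median scaling, a detection filter on 3 arrays, the replicate number and the bead number as blocks, another variance prior, averaging of *Cmah*-null replicates 1 and 2, and each array left out. Sequences are from RefSeq tables of GRCm38.p6 and the array's annotation. Figures were drawn with matplotlib 3.10.9. The number of arrays limits the precision. Some listed genes are not reported here.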

Additional observations from a re-analysis of the deposited data

How the results depend on the processing

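The call at 1.5-fold with an unadjusted p depended on scaling and on single arrays, and the causes were not tested. Over all probes the 697 calls became 1482 with neqc (784 higher, 698 lower), 2488 with median scaling (2409 higher, 79 lower), 1728 with the bead number block and 429 (without WT replicate 2) to 1037 (without WT replicate 3) when an array was left out. Median scaling raised the share of higher calls from 47.9% to 96.8%. The count at an adjusted p of 0.05 was 3 with the bead number block. Of the 53 listed thermogenic genes, 11 were called, and this became 4 with median scaling, all higher, of which 1 was shared, and 4 (without WT replicate 1) to 8 when an array was left out. Samples with the same replicate number did not deviate together (r = 0.02, -0.17 and 0.01), so the numbers were not taken as pairs, and a replicate block gave 811 calls over all probes and 10 among the listed genes. No difference of a member probe detected on all 6 arrays changed sign. The *Otop1* probe ILMN_3060471, which was not detected on every array, ran from -0.04 to 0.02.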
